A study of Mus musculus with 16 samples.

Results

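The genes described here encode receptors through which retinal neurons sense glutamate, GABA and glycine. They were taken by symbol from rows that carry a single gene symbol: subunits of GABA-A, GABA-B, glycine, AMPA, kainate and NMDA receptors and the metabotropic glutamate receptors, without Grm6 and Grik1. Where a gene had several rows, the row with the highest mean stood for it. The rule gave 42 of 20259 genes: 12 GABA-A subunits, 3 rho subunits of GABA-A receptors, 2 GABA-B subunits, 5 glycine receptor subunits, 4 AMPA, 4 kainate and 5 NMDA subunits, 6 metabotropic glutamate receptors, and Grin1os, a noncoding RNA taken by the letters of its symbol. The RefSeq gene table lists 49 symbols of the rule. The other 7 were not analysed here, so counts by family cover the measured genes only.

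The arrays form 4 groups of 4 biological replicates: Gtf2ird1 null retinas at 4 months, wild-type (WT) retinas at 4 months, null retinas at 2 weeks and WT retinas at 2 weeks. Gtf2ird1 encodes a DNA-binding protein of the TFII-I family. Total RNA of each retina was hybridised to an Affymetrix Mouse Exon 1.0 array, and the titles give the older age as 4 months where the growth protocol gives 2 months. No label names the strain or sex of the animals. The values are the authors' normalised log2 signals of a whole gene on an array, so 1 unit is a doubling. They cannot be compared between genes.

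Glutamate is the transmitter of photoreceptors, bipolar cells and ganglion cells. AMPA and kainate receptors are ion channels that pass its fast signal, NMDA receptors add a slower one that needs depolarisation, and metabotropic receptors act through G proteins. Inhibition comes from GABA and glycine released by amacrine cells, with GABA also in horizontal cells. GABA-A and glycine receptors are chloride channels of mixed subunits, rho subunits form slowly decaying GABA channels on bipolar cell terminals, and GABA-B receptors act through G proteins. Immature receptors often differ in subunit from mature ones, as in the change of glycine receptor alpha subunits described in developing neurons.

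Some receptor genes lie beside each other in the genome, with at most 1 protein-coding gene between, and 5 such pairs join a gene called with age to one that was called in neither genotype. The promoters of 2 of these pairs, on chromosomes 4 and 5, are shown. They were chosen with their values and motif matches known, since they include the only receptor genes with GGATTA in a matched promoter, so they are examples of sequence and show no relation between motif and change. Gabrr1 and Gabrr2 encode rho subunits and lie next to each other among protein-coding genes. Gabra4 and Gabra2 encode alpha subunits of GABA-A receptors, with Cox7b2 between them. Gabrr1 and Gabra4 fell with age and Gabrr2 and Gabra2 were not called, though the difference between neighbours was not tested. Each sequence runs 5′ to 3′ on the gene's strand, 250 bases before to 50 after the start of transcription, from RefSeq (build GRCm38.p6). The windows are chr4:33132306-33132605 (Gabrr1, plus strand), chr4:33062862-33063161 (Gabrr2, plus strand), chr5:71658259-71658558 (Gabra4, minus strand) and chr5:71095800-71096099 (Gabra2, minus strand). Capitals mark GGATTA read on either strand, the core that homeodomain factors of the OTX and CRX kind bind.
Gabrr1: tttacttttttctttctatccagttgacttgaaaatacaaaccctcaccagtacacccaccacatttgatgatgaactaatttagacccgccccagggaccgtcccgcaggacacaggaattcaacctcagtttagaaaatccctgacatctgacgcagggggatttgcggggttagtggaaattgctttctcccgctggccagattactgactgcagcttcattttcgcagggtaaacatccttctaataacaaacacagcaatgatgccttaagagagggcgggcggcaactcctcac
Gabrr2: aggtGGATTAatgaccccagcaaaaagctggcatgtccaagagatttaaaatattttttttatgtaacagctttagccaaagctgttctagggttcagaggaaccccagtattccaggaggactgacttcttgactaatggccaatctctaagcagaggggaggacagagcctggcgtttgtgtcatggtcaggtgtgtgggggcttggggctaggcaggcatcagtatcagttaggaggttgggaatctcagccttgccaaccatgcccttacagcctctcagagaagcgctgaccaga
Gabra4: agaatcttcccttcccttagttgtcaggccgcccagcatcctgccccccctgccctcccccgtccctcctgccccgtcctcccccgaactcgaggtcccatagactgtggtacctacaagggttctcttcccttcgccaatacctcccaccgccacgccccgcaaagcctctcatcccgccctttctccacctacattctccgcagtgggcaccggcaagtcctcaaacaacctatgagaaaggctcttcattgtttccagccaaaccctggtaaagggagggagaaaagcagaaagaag
Gabra2: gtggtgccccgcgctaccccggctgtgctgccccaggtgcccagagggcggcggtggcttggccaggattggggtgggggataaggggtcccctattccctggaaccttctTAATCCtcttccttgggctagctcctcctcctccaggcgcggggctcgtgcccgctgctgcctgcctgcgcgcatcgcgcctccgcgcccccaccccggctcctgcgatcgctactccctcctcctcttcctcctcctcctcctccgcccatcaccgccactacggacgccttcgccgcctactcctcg
The motif stands 246 bases before the start of Gabrr2 and 139 bases before that of Gabra2. The windows of Gabrr1 and Gabra4 hold no match. Nor do those of Gabra6, Gabre and Gabrq, the uncalled genes of the other 3 pairs, which stand beside Gabrb2 or Gabra3. Of all 32851 promoters of the same length, 7.06% hold GGATTA on either strand, against 2 of 40 receptor promoters of the 33 receptor genes that matched. CAGCTG, an E-box that reads the same on both strands, was in 16.3% of all promoters and in 2 of the 40, those of Gabrp and Glra3. The palindrome TGACGTCA, a cyclic AMP response element, was in 1.79% of all promoters and in none of the 40. These matches describe letters only.

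The targeted gene was checked first. Of 4 rows with the Gtf2ird1 symbol, 3 were lower in every null array than in every WT array at both ages, by at least 3.76 to 4.70 on the log2 scale (exact permutation test, two-sided, p = 0.0286 in each, the smallest that 4 against 4 arrays can give). Null means of these rows were 4.71 to 5.06, below every array median, so their level in null has only a bound. At 2 weeks the fourth row was 0.17 higher in null, with every null array above every WT array (exact p = 0.0286). It read 10.2 to 10.4 in null arrays and 10.2 to 10.4 in WT arrays at 4 months. Array medians lay between 5.31 and 5.55. Markers of photoreceptors, the most numerous cells of the retina, summed to linear signals of 45249 to 56777 over the 16 arrays. Of the 42 receptor genes, 34 lay at or above the median signal of all rows and 8 below it: Gabra5, Gabra6, Gabre, Gabrp, Gabrq, Grin2c, Grin3b and Grm3. Arrays stood apart at 2 weeks in both genotypes. Replicate 2 of the null group read a median of 0.14 below its group means over the receptor genes, and replicate 1 of WT had the highest array median. Xist, a transcript of female cells, gave signal in 3 WT arrays and in no null array. No row of the table reads 0, as the lowest deposited value is 3.76.

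Between 2 weeks and 4 months several receptor genes fell and none rose. A gene was called at a limma adjusted p under 0.05 (Benjamini-Hochberg over 20259 genes, in 1 model of the 16 arrays). In null retinas 5 of 42 receptor genes (11.9%) were called, all lower at 4 months: Gabra3, Gabra4 and Gabrb2 (GABA-A), Gabrr1 (rho) and Glra2 (glycine). Over all genes, 9.61% were called in null, with 5.9% lower. In WT retinas 9 of 42 (21.4%) were called, all lower: the same 5 and Gabrb1 (GABA-A), Grik3 (kainate), Grin2a (NMDA) and Grm3 (metabotropic). Over all genes, 9.19% were called in WT, with 4.81% lower. Of the 9 genes called in WT, 6 encode GABA or glycine receptor subunits. Among the 42 there are 12 GABA-A, 3 rho, 2 GABA-B and 5 glycine receptor genes. Whether calls favoured a family was not tested. The 5 shared genes are 100% of the null calls and 55.6% of the WT calls. Most receptor genes lie at or above the median signal, where calls are more frequent. In a fit of such genes alone, 14.3% of all genes were called in null and 14% in WT. Of the 34 receptor genes there, 5 were called in null, the same ones, and 9 in WT, with Gabrr3 called and Grm3 filtered out. Without both 2-week arrays that stand apart, 12 receptor genes were called in null and 14 in WT. Over all genes, 13.3% and 14.3% were called in that setting, which was added after seeing the data. Both arrays read low over the receptor genes themselves, with median deviations of -0.14 in null and -0.1 in WT. Leaving out low 2-week arrays favours falls with age, so these counts are no independent evidence. The median difference over the 42 genes was -0.20 in null and -0.12 in WT, where the median over all genes was -0.02 in null and -0.04 in WT. A negative difference was found for 30 of 42 in null (71.4%, against 53.9% of all genes) and for 32 of 42 in WT (76.2%, against 59.4%).

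**Figure D1:**
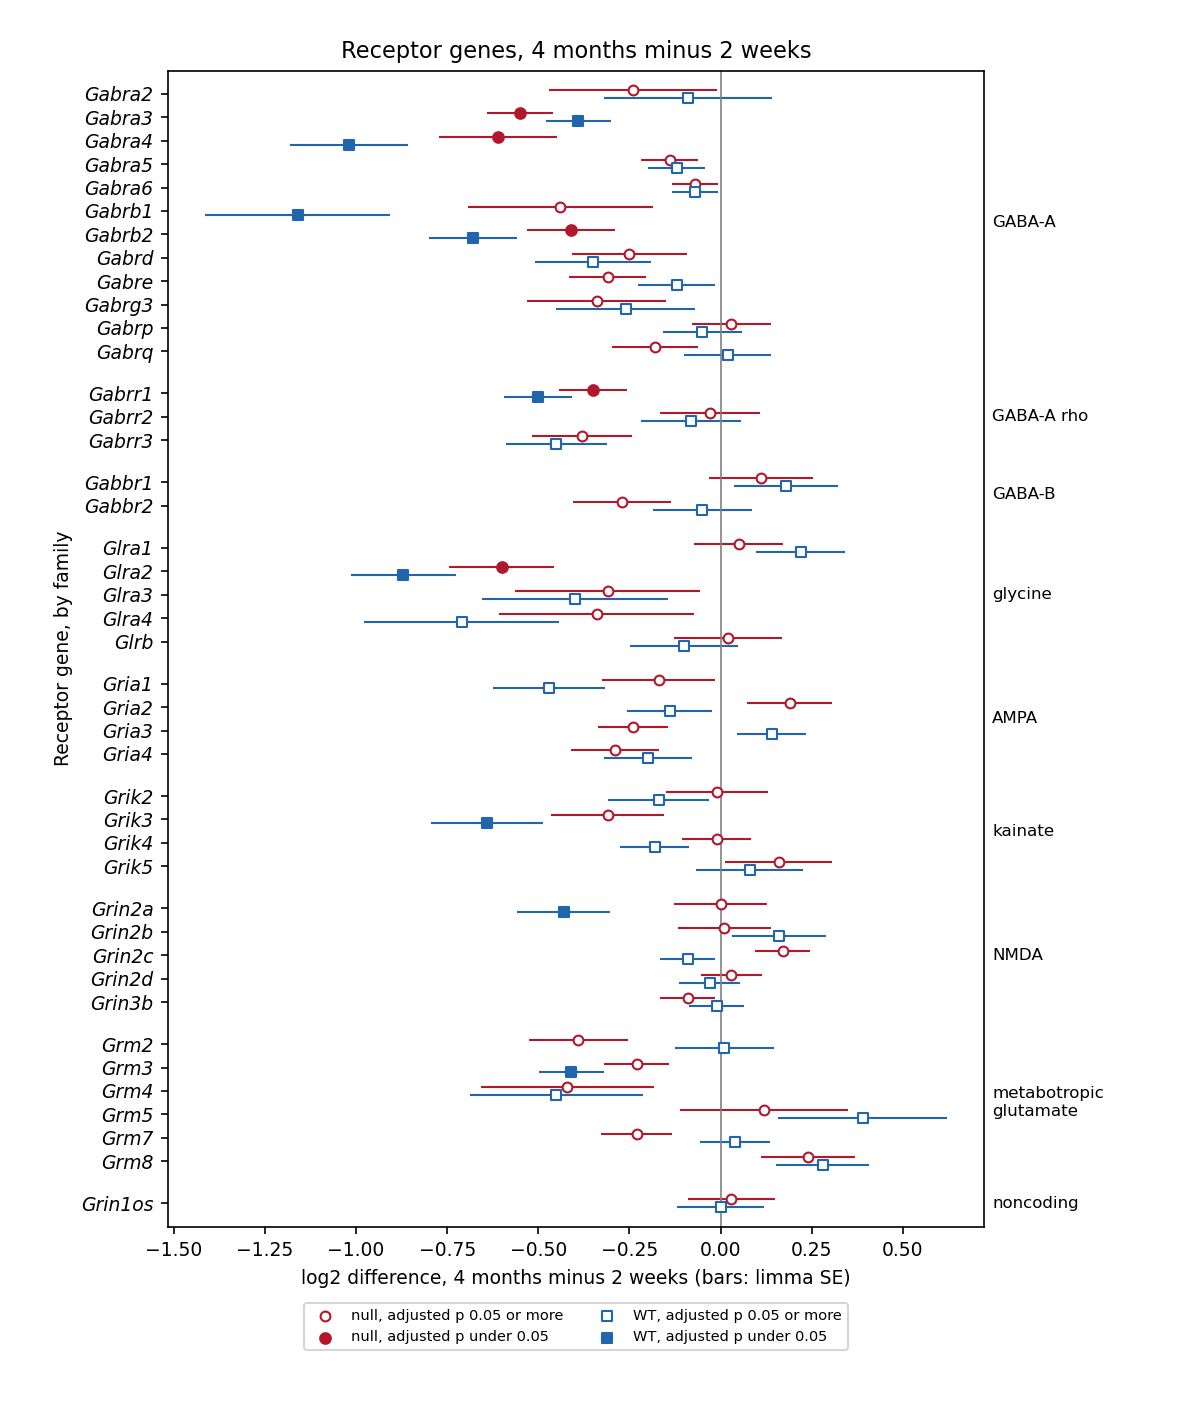
Log2 difference (x axis, 4 months minus 2 weeks, bars are limma standard errors) of the 42 receptor genes by family (y axis), null as circles and WT as squares, filled where the adjusted p was under 0.05. All filled symbols lie left of 0, 5 in null and 9 in WT.

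Among the alpha subunits of GABA-A receptors, which help set where a receptor sits and how it responds to GABA, Gabra4 and Gabra3 fell in both genotypes. In null retinas, Gabra4 read 7.05, 7.55, 6.91 and 6.89 at 4 months, against 7.63, 7.59, 7.63 and 8.01 at 2 weeks. WT retinas gave Gabra4 values of 7.12, 7.07, 6.57 and 6.91 at 4 months, against 7.93, 7.70, 8.24 and 7.86 at 2 weeks. In both genotypes every 4-month array lay below every 2-week array. The log2 difference was -0.61 (SE 0.162, limma adjusted p = 0.0241) in null and -1.02 (SE 0.162, limma adjusted p = 0.00117) in WT, falls of 1.53-fold and 2.02-fold. The null call was lost when any of 4 null arrays was left out (2-week replicate 4 or 4-month replicate 1, 3 or 4), with differences of -0.59 to -0.51 and limma adjusted p of 0.0596 to 0.0799. In null retinas, Gabra3 read 10.37, 10.52, 10.25 and 10.15 at 4 months, against 10.94, 10.87, 10.98 and 10.72 at 2 weeks. WT retinas gave Gabra3 values of 10.25, 10.23, 10.29 and 10.34 at 4 months, against 10.76, 10.53, 10.70 and 10.65 at 2 weeks. Again the ages did not overlap in either genotype. The difference was -0.55 (SE 0.0896, limma adjusted p = 0.00103) in null and -0.39 (SE 0.0896, limma adjusted p = 0.0129) in WT. A dimmer row of Gabra3 gave 0.19 in null and -0.30 in WT and passed in neither, and both calls were lost in the mean of the gene's rows (limma adjusted p = 0.568 in null and 0.192 in WT). Without the 3 WT arrays with Xist signal Gabra3 gave -0.36 in WT (limma adjusted p = 0.0784). Gabra2, Gabra5 and Gabra6 were not called in either genotype, with differences between -0.24 and -0.07.

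Beta subunits are needed for GABA-A receptors to reach the membrane. In null retinas, Gabrb2 read 10.47, 10.65, 10.44 and 10.47 at 4 months, against 11.07, 10.78, 10.97 and 10.88 at 2 weeks. WT retinas gave Gabrb2 values of 10.47, 10.49, 10.30 and 10.87 at 4 months, against 11.00, 11.12, 11.47 and 11.27 at 2 weeks. All 4-month arrays lay below all 2-week arrays of their genotype. The difference was -0.41 (SE 0.121, limma adjusted p = 0.0406) in null and -0.68 (SE 0.121, limma adjusted p = 0.00244) in WT, 1.33-fold and 1.60-fold lower. The null call was lost when 2-week null replicate 1, 3 or 4, 4-month null replicate 1, 3 or 4, or 4-month WT replicate 2 was left out, with differences of -0.43 to -0.37 and limma adjusted p of 0.0525 to 0.122. A dimmer row gave -0.26 in null and -0.40 in WT, and its adjusted p in WT was 0.0382 in a limma fit of all rows. In null retinas, Gabrb1 read 7.95, 8.19, 7.70 and 7.66 at 4 months, against 8.59, 7.70, 8.87 and 8.10 at 2 weeks. WT retinas gave Gabrb1 values of 8.43, 7.69, 7.57 and 7.79 at 4 months, against 9.26, 8.58, 9.50 and 8.76 at 2 weeks. The ages overlapped in null and were separate in WT. In WT Gabrb1 fell by 1.16 on the log2 scale (SE 0.254, limma adjusted p = 0.00932), 2.23-fold, the widest difference among the receptor genes. Without the 3 WT arrays with Xist signal the difference was -1.14 (limma adjusted p = 0.0584). In null the difference was -0.44 (SE 0.254, limma adjusted p = 0.342), with a 95% interval of -0.98 to 0.10. The difference between the genotypes in this change was 0.72 (interval -0.04 to 1.48, limma adjusted p = 0.866), so the 2 age effects were not shown to differ. The other GABA-A genes, Gabrd, Gabre, Gabrg3, Gabrp and Gabrq, passed in neither genotype. In all, 11 of 12 GABA-A genes had a negative difference in each genotype.

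Of the rho subunits, Gabrr1 fell in both genotypes. In null retinas, Gabrr1 read 10.45, 10.46, 10.39 and 10.63 at 4 months, against 10.92, 10.70, 10.78 and 10.94 at 2 weeks. WT retinas gave Gabrr1 values of 10.41, 10.44, 10.58 and 10.69 at 4 months, against 10.89, 10.94, 11.08 and 11.19 at 2 weeks. The 4-month arrays lay below the 2-week arrays in both genotypes. Gabrr1 gave -0.35 (SE 0.0936, limma adjusted p = 0.0248) in null and -0.50 (SE 0.0936, limma adjusted p = 0.00371) in WT. Leaving out 2-week null replicate 1 or 4, or 4-month null replicate 1, 2 or 3, lost the null call (differences of -0.34 to -0.32, limma adjusted p of 0.0612 to 0.0781). Its neighbour Gabrr2 gave -0.03 in null (interval -0.32 to 0.26) and -0.08 in WT (limma adjusted p = 0.951 and 0.777). Whether the rho genes differed from each other in their change was not tested. Gabrr3 missed the threshold with -0.38 in null (limma adjusted p = 0.0981) and -0.45 in WT (adjusted p = 0.0514). The GABA-B subunits, Gabbr1 and Gabbr2, which pair into 1 receptor, gave 0.11 and -0.27 in null and 0.18 and -0.05 in WT, and neither was called.

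**Figure D2:**
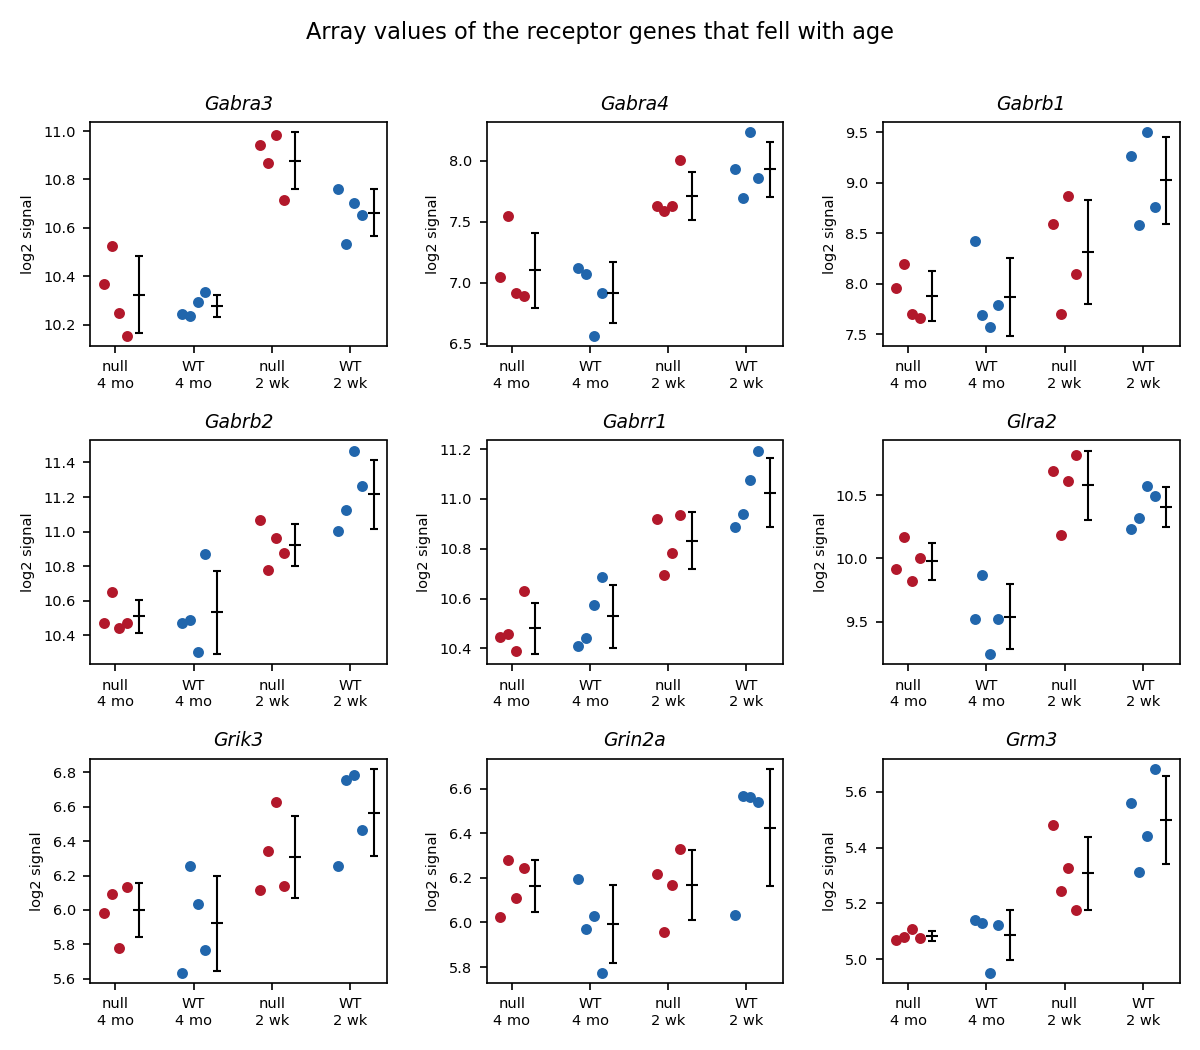
Log2 signal (y axis) in each array for the 9 receptor genes called with age, by group (x axis), with the group mean and SD beside the 4 points. The 4-month points lie below the 2-week points of the same genotype for Gabra3, Gabra4, Gabrb2, Gabrr1, Glra2 and Grm3, while those of Grin2a overlap in both genotypes.

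Of the glycine receptor subunits, Glra2, the alpha subunit known from immature neurons, fell in both genotypes. In null retinas, Glra2 read 9.91, 10.17, 9.82 and 10 at 4 months, against 10.69, 10.18, 10.61 and 10.82 at 2 weeks. WT retinas gave Glra2 values of 9.52, 9.87, 9.24 and 9.52 at 4 months, against 10.23, 10.32, 10.57 and 10.50 at 2 weeks. No 4-month array reached a 2-week array of its genotype. Glra2 gave -0.60 (SE 0.144, limma adjusted p = 0.0141) in null and -0.87 (SE 0.144, limma adjusted p = 0.00163) in WT, 1.52-fold and 1.82-fold lower. In null retinas, Glra1 read 9.82, 9.91, 10.04 and 10.15 at 4 months, against 10.14, 9.67, 10.14 and 9.79 at 2 weeks. WT retinas gave Glra1 values of 9.88, 9.98, 9.82 and 9.61 at 4 months, against 9.48, 9.68, 9.50 and 9.77 at 2 weeks. Glra1, the alpha subunit that predominates in adult spinal cord, gave overlapping ages in null and in WT. Its difference was 0.05 in null (limma adjusted p = 0.89) and 0.22 in WT (adjusted p = 0.308). Glra3 and Glra4 varied widely between arrays, with residual SDs of 0.408 and 0.428 against a median of 0.188 for the receptor genes and 0.172 for all genes. Their differences were -0.31 and -0.34 in null and -0.40 and -0.71 in WT, without a call. Glrb, the beta subunit that anchors the receptor to gephyrin, gave 0.02 in null and -0.10 in WT.

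The balance of the alpha subunits was measured within arrays as the log2 signal of Glra1 minus that of Glra2, whose change, not its level, is of use. In null retinas it was -0.09, -0.26, 0.22 and 0.15 at 4 months, against -0.55, -0.52, -0.47 and -1.03 at 2 weeks. In WT retinas it was 0.36, 0.11, 0.58 and 0.09 at 4 months, against -0.76, -0.64, -1.07 and -0.73 at 2 weeks. All 8 arrays of 4 months lay above all 8 of 2 weeks. The shift was 0.87 over both genotypes (exact permutation test within genotype, two-sided, 4900 assignments, p = 0.000408, the smallest they can give, 0.00163 after adjustment over 4 tests). Null minus WT was -0.06 in the same quantity (exact p = 0.634, adjusted 0.634). The pair was chosen with its age pattern known, so its p is not independent evidence.

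**Figure D3:**
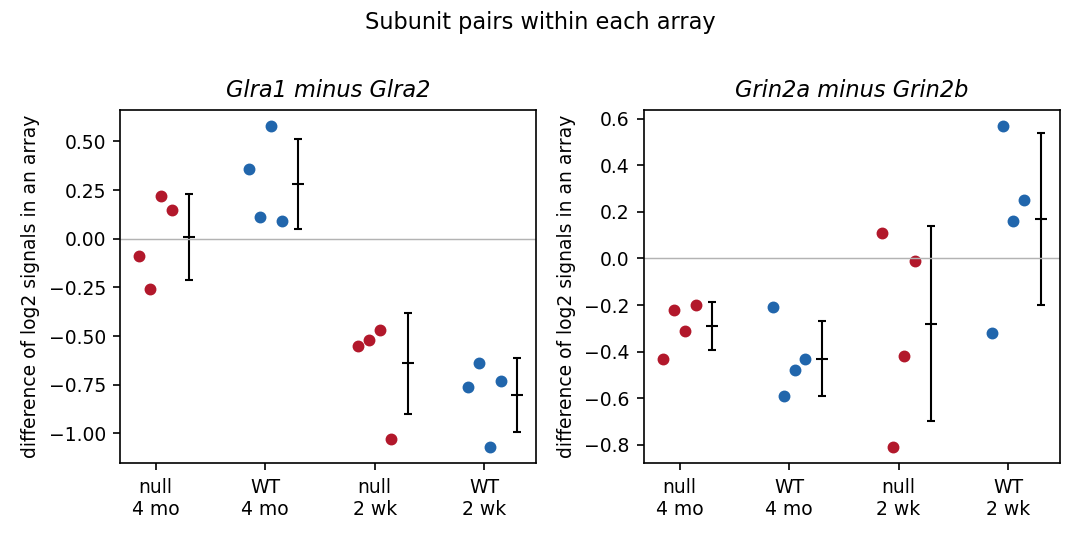
Difference of log2 signals in each array (y axis) for Glra1 minus Glra2 and Grin2a minus Grin2b, by group (x axis), with mean and SD. For the glycine pair the 4-month arrays all lie above the 2-week arrays, and for the NMDA pair the groups overlap.

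NMDA receptors take Grin2 subunits, which set how long the channel stays open. In null retinas, Grin2a read 6.03, 6.28, 6.11 and 6.24 at 4 months, against 6.22, 5.96, 6.17 and 6.33 at 2 weeks. WT retinas gave Grin2a values of 6.19, 5.97, 6.03 and 5.77 at 4 months, against 6.03, 6.57, 6.56 and 6.54 at 2 weeks. The ages overlapped in both genotypes. Grin2a fell by 0.43 in WT (SE 0.127, limma adjusted p = 0.0421) and gave 0.00 in null (adjusted p = 0.99). The difference of the age effects was 0.43 (interval 0.05 to 0.81, limma adjusted p = 0.786). Its WT call was lost in 17 of 29 other settings, 11 of which leave out 1 array: 4-month null replicate 1, 3 or 4, 2-week null replicate 1 or 3, or replicate 2, 3 or 4 of either WT group. In those 11 it gave -0.45 to -0.36 (limma adjusted p of 0.0505 to 0.126). In null retinas, Grin2b read 6.45, 6.50, 6.42 and 6.44 at 4 months, against 6.11, 6.77, 6.58 and 6.34 at 2 weeks. WT retinas gave Grin2b values of 6.40, 6.56, 6.51 and 6.21 at 4 months, against 6.35, 5.99, 6.40 and 6.29 at 2 weeks. Grin2b, the subunit known from immature synapses in brain, overlapped between the ages and gave 0.01 in null and 0.16 in WT.

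Grin2a minus Grin2b was -0.43, -0.22, -0.31 and -0.20 in null at 4 months, against 0.11, -0.81, -0.42 and -0.01 at 2 weeks. In WT it was -0.21, -0.59, -0.48 and -0.43 at 4 months, against -0.32, 0.57, 0.16 and 0.25 at 2 weeks. The WT ages overlapped through replicate 1 of 2 weeks alone. The shift with age was -0.30 (exact permutation p = 0.089, adjusted 0.178) and null minus WT was -0.16 (exact p = 0.367, adjusted 0.489). Without replicate 2 of the 2-week null group the shift with age was -0.39 (exact permutation test, adjusted p = 0.0254). Grin2c, Grin2d and Grin3b were not called with age, with differences of -0.09 to 0.17.

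Of the other glutamate receptors, Grik3, a kainate receptor subunit, and Grm3, a metabotropic receptor that lowers cyclic AMP, fell in WT. In null retinas, Grik3 read 5.98, 6.09, 5.78 and 6.13 at 4 months, against 6.12, 6.35, 6.63 and 6.14 at 2 weeks. WT retinas gave Grik3 values of 5.63, 6.25, 6.04 and 5.77 at 4 months, against 6.26, 6.76, 6.79 and 6.47 at 2 weeks. In WT the ages were separate, though barely, and in null they overlapped. Grik3 gave -0.31 (SE 0.154, limma adjusted p = 0.25) in null and -0.64 (SE 0.154, limma adjusted p = 0.0153) in WT, and a dimmer row gave -0.45 in null and -0.71 in WT. The WT call was lost without 4-month WT replicate 1 or 2-week WT replicate 3 (-0.55 and -0.57, limma adjusted p = 0.0552 and 0.0575). In null retinas, Grm3 read 5.07, 5.08, 5.11 and 5.07 at 4 months, against 5.48, 5.24, 5.33 and 5.18 at 2 weeks. WT retinas gave Grm3 values of 5.14, 5.13, 4.95 and 5.12 at 4 months, against 5.56, 5.31, 5.44 and 5.68 at 2 weeks. The ages were separate in both genotypes. Grm3 gave -0.23 (SE 0.0893, limma adjusted p = 0.136) in null and -0.41 (SE 0.0893, limma adjusted p = 0.0084) in WT, at signals below the median of all rows. Without the 3 WT arrays with Xist signal it gave -0.30 in WT (limma adjusted p = 0.0902).

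The AMPA subunits, which carry most fast excitation, gave no call with age. Gria2, the subunit that makes the channel impermeable to calcium, read 11.15, 11.17, 11.14 and 11.23 in null at 4 months, against 11.14, 10.75, 11.05 and 11.00 at 2 weeks. In WT it read 11.23, 11.23, 11.05 and 11.19 at 4 months, against 10.90, 11.41, 11.46 and 11.46 at 2 weeks. The null ages differ by 0.19 (limma adjusted p = 0.385), and the WT ages by -0.14 (adjusted p = 0.535). Gria1 gave -0.17 in null and -0.47 in WT (limma adjusted p = 0.583 and 0.0687). Metabotropic receptors held the highest age differences, which did not pass either. Grm8 gave 0.24 in null and 0.28 in WT, and Grm5, a receptor coupled to calcium release, gave 0.12 and 0.39. A dimmer row of Grm5 gave 0.13 in null and -0.23 in WT, the other direction in WT. Grm2 gave -0.39 in null (limma adjusted p = 0.0892) and 0.01 in WT, and a dimmer row gave 0.06 and 0.03. Counting separation alone, 6 receptor genes lay lower with no overlap in null (9.82% of all genes did) and 1, Gria2, lay higher (7.69%). The separation of Gria2 was minimal, as its nearest null arrays read 11.1444 at 4 months and 11.1429 at 2 weeks. In WT 9 lay lower (6.91% of all genes), the 8 called genes other than Grin2a together with Grm4, and none lay higher (5.83%).

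Markers of retinal cell types moved with age beside these genes, and in whole-retina RNA fewer cells of a type and less RNA per cell cannot be told apart. Of 10 ganglion cell markers, 4 were called lower in null and 5 in WT, none higher, with summed linear signals of 8154 to 9384 at 4 months against 11012 to 12892 at 2 weeks in null and 8563 to 10025 against 10651 to 14928 in WT. Of 12 amacrine cell markers, 2 were lower in null and 3 in WT, with sums of 9074 to 10441 against 9703 to 12305 in null and 9231 to 10049 against 10543 to 11521 in WT. Of 8 bipolar cell markers, 2 were lower in null, and 2 were lower and 2 higher in WT, with sums of 6687 to 7223 against 7664 to 8982 in null and 6888 to 7294 against 7147 to 8444 in WT. Pigment epithelium markers were called lower with age for 6 of 10 in null and 2 of 10 in WT, with sums of 552 to 1559 at 4 months against 2843 to 5496 at 2 weeks in null and 640 to 1697 against 1193 to 3337 in WT. Of 10 markers of endothelium and pericytes, 6 were lower and 1 higher in null, and 5 were lower and 1 higher in WT. Their sums were 2960 to 3439 at 4 months against 3270 to 4266 at 2 weeks in null and 2700 to 3003 against 2940 to 3698 in WT. All 13 lens markers had a negative difference in null, with a median of -1.49 and 2 called, against 8 of 13 in WT, with a median of -0.04 and none called. With the lens mean as a covariate the null calls still numbered 5, but Gabrb2 was lost (-0.40, limma adjusted p = 0.131) and Grm2 was called lower, and the 9 WT calls were those without the covariate. Of 8 microglia markers 2 were lower in null and 3 in WT, and of 6 markers of retinal progenitors 2 were lower in each genotype. Of 11 photoreceptor markers, 1 was called higher in null and 2 in WT, and none lower. Of 6 horizontal cell markers, 1 was lower in null, and 1 was lower and 2 higher in WT. Of 10 Müller glia markers 1 was lower in each genotype, and of 6 markers of white matter and optic nerve 1 was lower in null. Over all genes, 5.9% were called lower in null and 4.81% in WT, and 3.71% and 4.38% were called higher. The part of these cell types in the receptor results was not tested.

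Other genes of the same synapses were followed in 4 lists. Among 31 measured partners of glutamate receptors, 2 rose and 3 fell in null, and 2 rose and 2 fell in WT. Over all genes, 3.71% were called higher and 5.9% lower in null, and 4.38% and 4.81% in WT. Homer1, a scaffold that binds metabotropic receptors, rose by 0.73 in null and 0.41 in WT (limma adjusted p = 0.000342 and 0.0185). Cnih3, an auxiliary protein of AMPA receptors, fell by 0.73 in null and 1.05 in WT (adjusted p = 0.0224 and 0.00275). The list's median was -0.12 in null and 0.05 in WT. Cnih2, also an AMPA receptor auxiliary protein, fell by 0.60 in null, and Dlg2, a scaffold of NMDA receptors, fell by 0.41 in WT (limma adjusted p = 0.0102 and 0.0355).

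Among 20 partners of inhibitory receptors, 1 rose in null, and 2 rose and 2 fell in WT, with list medians of -0.03 and 0.09. Gphn, which encodes gephyrin, the scaffold of glycine and GABA-A receptors, rose by 0.46 in WT (limma adjusted p = 0.0114). Plcl2, a protein related to phospholipase C, rose by 0.35 in null (adjusted p = 0.043). Among 24 genes that make, load or take up the transmitters, 4 fell in each genotype and none rose, with list medians of -0.13 in null and -0.11 in WT. For these lists too, 5.9% of all genes were called lower in null and 4.81% in WT. The shares called higher were 3.71% and 4.38%, and no list was tested as a set. Abat, the enzyme that breaks down GABA, fell by 0.49 in null and 0.71 in WT, and Slc1a3, the glutamate transporter of Müller glia, fell by 0.38 and 0.48. In limma the adjusted p was 0.0267 and 0.00335 for Abat and 0.0297 and 0.00842 for Slc1a3. Of 13 genes listed for the signalling cascade in ON bipolar cells, 1 rose in null and 3 in WT. The null rise was that of Rgs9, by 0.31 (limma adjusted p = 0.0156). Rgs9 is better known from photoreceptors, so its rise does not show a rise of this cascade. Gnao1, the G protein subunit of the cascade, rose by 0.93 in WT, and Trpm1, its cation channel, by 0.35 (limma adjusted p = 0.0014 and 0.0216). Prkca rose by 0.73 in WT (limma adjusted p = 0.00338). Prkca and Trpm1 are also the bipolar cell markers called higher in WT above.

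The second question was whether loss of Gtf2ird1 altered receptor transcripts. In the limma fit 0 of 42 receptor genes were called at 4 months (0.41% of all genes were called), 0 at 2 weeks (1.06%) and 0 averaged over the ages (1.4%). An unadjusted p under 0.05 was found for 1 of 42 at 4 months (2.38%, against 5.37% of all genes). It was found for 13 at 2 weeks (31%, against 12.5%) and for 6 on average (14.3%, against 11.3%). Of those 13, 8 were higher in null and 5 were lower. The medians over the 42 genes were 0.01 at 4 months and -0.04 at 2 weeks, where all genes gave 0.00 and -0.02. At 4 months the 95% interval of null over WT lay within 1.5-fold of no change for 37 of 42 genes (88.1%). Over all genes it did so for 89.3%. The numbers were 32 at 2 weeks (76.2%, against 84.1%) and 39 on average (92.9%, against 94.8%). On average Gabra2, Gabrb1 and Gabrg3 were not so bounded. At 2 weeks 1 receptor gene, Grik4, a kainate receptor subunit, lay lower in all 4 null arrays than in all 4 WT arrays (2.69% of all genes were lower with no overlap). It read 6.34, 6.18, 6.26 and 6.29 in null against 6.61, 6.44, 6.46 and 6.43 in WT, a difference of -0.22 (SE 0.0948, limma adjusted p = 0.354). A dimmer row of Grik4 gave -0.03 at 2 weeks. At 4 months no receptor gene was separate (4.73%).

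**Figure D4:**
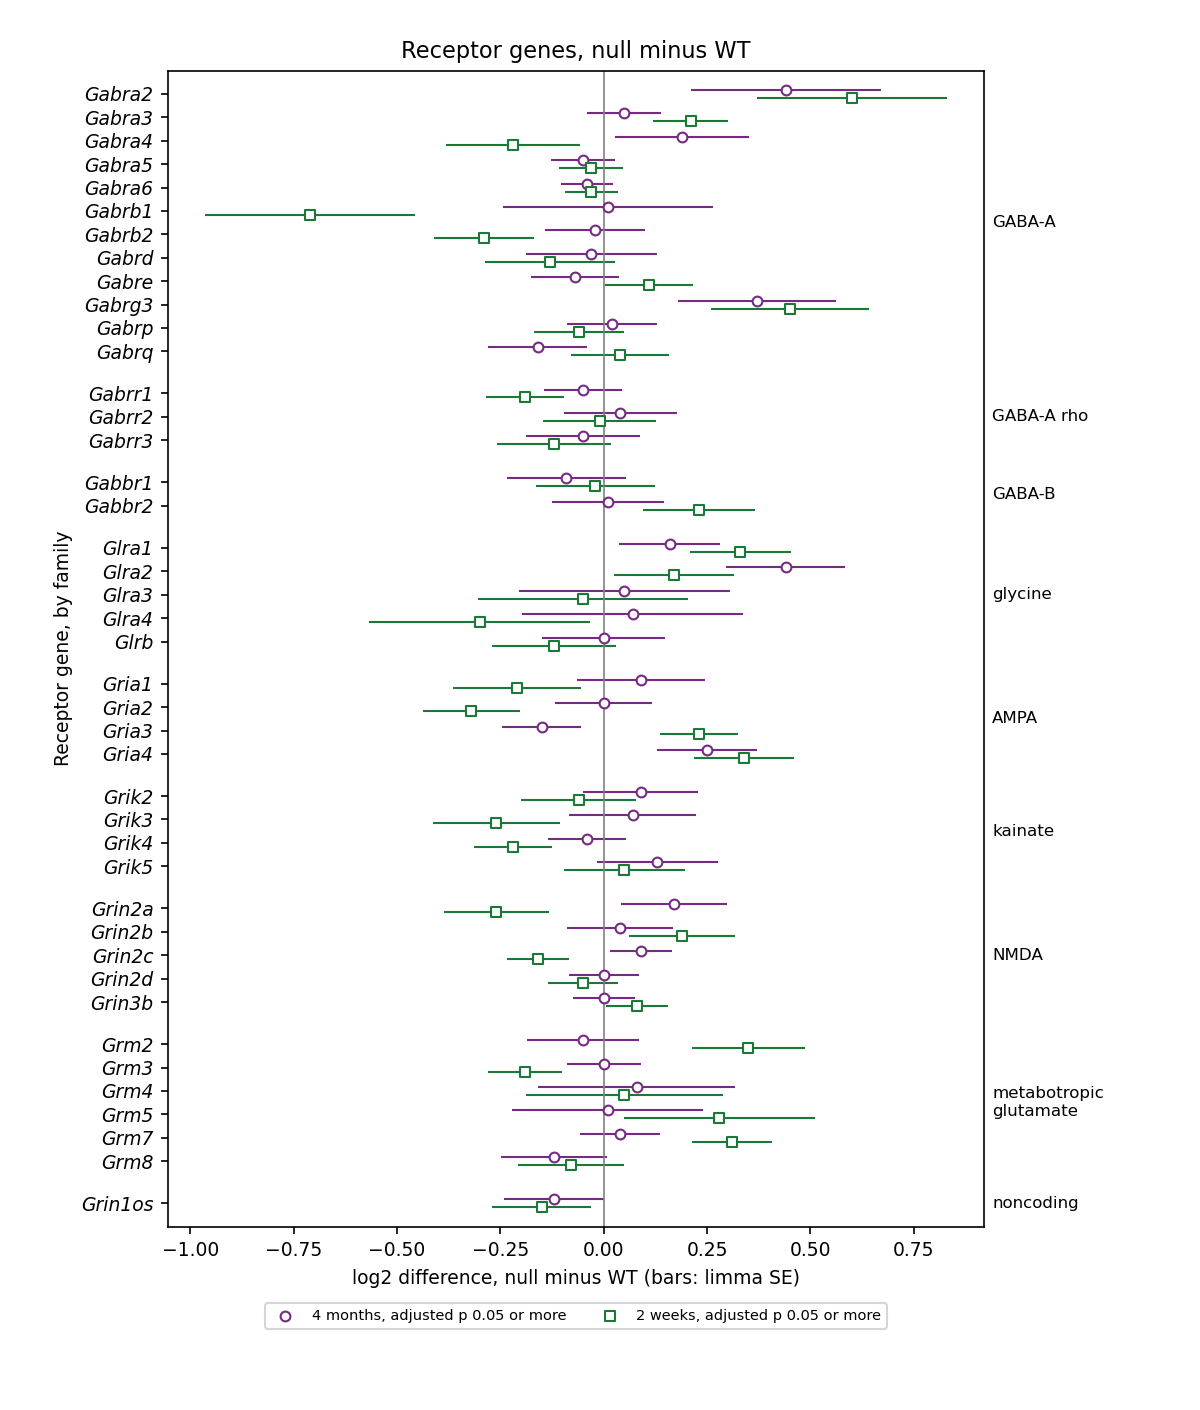
Log2 difference (x axis, null minus WT, bars are limma standard errors) of the 42 receptor genes by family (y axis), 4 months as circles and 2 weeks as squares. No symbol is filled because no adjusted p was under 0.05; values run from -0.16 to 0.44 at 4 months and from -0.71 to 0.60 at 2 weeks.

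The 3 smallest p-values in each contrast name the genes nearest to a difference. Gria4, an AMPA receptor subunit, had the smallest on average over the ages. It read 8.80, 8.87, 8.66 and 8.80 in null against 8.78, 8.33, 8.38 and 8.63 in WT at 4 months. At 2 weeks it read 9.17, 8.87, 9.08 and 9.16 in null against 8.42, 8.72, 8.93 and 8.87 in WT. The groups overlapped at both ages, and the average difference was 0.30 (SE 0.0856, limma adjusted p = 0.124). Gabra2 read 8.58, 8.93, 8.90 and 8.82 in null against 7.67, 8.12, 8.67 and 9.0 in WT at 4 months. At 2 weeks it read 9.14, 8.63, 9.27 and 9.17 in null against 8.07, 8.78, 8.41 and 8.55 in WT. The null means were higher at both ages with overlapping arrays. The average was 0.52 (SE 0.163, limma adjusted p = 0.164), with an interval of 0.18 to 0.87. Gabrg3, a gamma subunit of GABA-A receptors, read 8.15, 7.50, 8.12 and 7.54 in null against 7.74, 7.52, 6.97 and 7.58 in WT at 4 months. At 2 weeks it read 8.12, 8.46, 8.05 and 8.03 in null against 7.56, 8.08, 7.75 and 7.45 in WT. It too overlapped at both ages, and the average was 0.41 (SE 0.135, limma adjusted p = 0.192).

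At 4 months the smallest p was that of Glra2, whose arrays are given above, with 0.44 (SE 0.144, limma adjusted p = 0.455). Its null values lay between 9.82 and 10.17 and its WT values between 9.24 and 9.87, so the groups overlapped. At 2 weeks the smallest was that of Grm7, a metabotropic receptor of transmitter release sites. It read 6.94, 7.07, 7.09 and 7.11 in null against 6.78, 6.95, 6.51 and 6.73 in WT at 2 weeks. At 4 months it read 6.74, 7.02, 6.71 and 6.81 in null against 6.85, 6.79, 6.83 and 6.66 in WT. The 2-week groups overlapped by 1 array of each. The 2-week difference was 0.31 (SE 0.0969, limma adjusted p = 0.16), and a dimmer row of Grm7 gave 0.15. Gabrb1 gave -0.71 (SE 0.254, limma adjusted p = 0.246) at 2 weeks and 0.01 at 4 months.

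Gria2 was named after its values were seen, because leaving out 1 array changes its call. At 2 weeks 3 of 4 WT arrays lay at 11.41 to 11.46, above every null array (10.75 to 11.14), and WT replicate 1 read 10.90. Over all arrays the difference was -0.32 (SE 0.117, limma adjusted p = 0.248). Without that WT array it was -0.46 (limma adjusted p = 0.0115). With null replicate 2, the other array that stands apart, left out as well, it was -0.38 (limma adjusted p = 0.0192), and with array weights it was -0.38 (limma adjusted p = 0.031). WT replicate 1 is also 1 of the 3 WT arrays with Xist signal. Without those 3 arrays the difference was -0.45 (limma adjusted p = 0.0608), with a sex covariate -0.40 (adjusted p = 0.243) and with the lens covariate -0.29 (adjusted p = 0.571). Gria2 passed in 3 of 29 other settings. At 4 months it was 0.00.

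**Figure D5:**
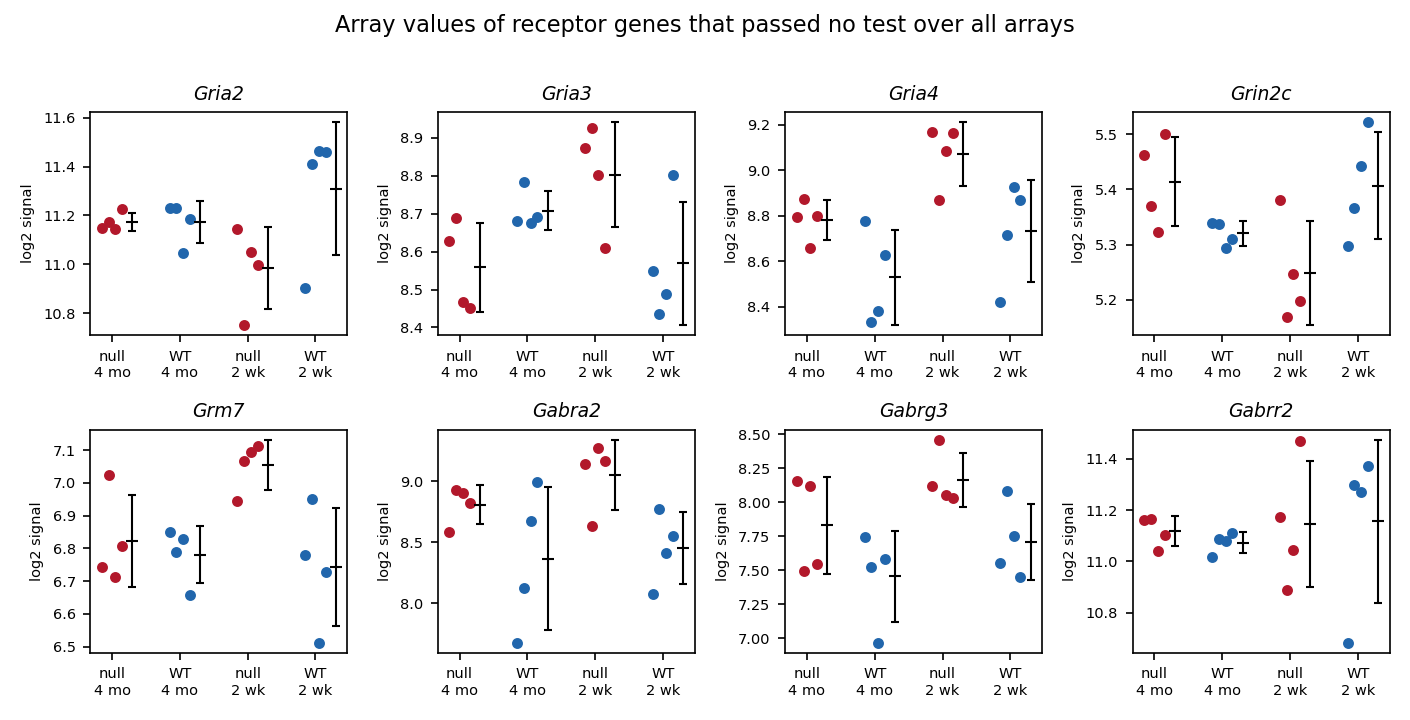
Log2 signal (y axis) in each array for 8 receptor genes without a call, by group (x axis), with mean and SD. In Gria2 a single 2-week WT array lies among the null arrays, and the other panels show overlap between null and WT.

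Lens markers tended to read higher in null at 2 weeks, with array means that overlapped between the genotypes. All 13 measured were higher in null, by a median of 1.96, though none was called, and their mean log2 signal per array was 9.18 to 11.90 in null against 7.55 to 9.89 in WT. At 4 months it was 7.60 to 10.40 in null against 7.43 to 9.82 in WT. Pigment epithelium markers at 2 weeks were called higher in null for 2 of 10, with summed signals of 2843 to 5496 in null against 1193 to 3337 in WT. With the lens mean as a covariate no receptor gene was called between genotypes either.

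Whether the genotype difference itself changed with age was tested by the difference of the differences, in which no receptor gene was called (0.00987% of all genes were). An unadjusted p under 0.05 in limma was found for 3 of 42 (7.14%), against 5.92% of all genes. Gria3, an AMPA receptor subunit, read 8.63, 8.69, 8.47 and 8.45 in null against 8.68, 8.78, 8.68 and 8.69 in WT at 4 months. At 2 weeks it read 8.87, 8.93, 8.80 and 8.61 in null against 8.55, 8.44, 8.49 and 8.80 in WT. Null overlapped WT at both ages, with means lower in null at 4 months and higher in null at 2 weeks. The difference of differences was -0.38 (SE 0.134, limma adjusted p = 0.677). Grin2c, which lies below the median signal, read 5.46, 5.37, 5.32 and 5.50 in null against 5.34, 5.34, 5.29 and 5.31 in WT at 4 months. At 2 weeks it read 5.38, 5.17, 5.25 and 5.20 in null against 5.30, 5.37, 5.44 and 5.52 in WT. Its value was 0.25 (SE 0.106, limma adjusted p = 0.787), with overlap at both ages. The third gene was Grin2a, given above.

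Of the 87 measured genes in the 4 lists, 1 of which is in more than 1 list, 1 gene was called between genotypes at 2 weeks (1.15%, against 1.06% of all genes) and 1 on average (1.15%, against 1.4%), shares near those of all genes. It was Dlgap1 in both. Dlgap1, a scaffold protein of glutamate synapses, rose in null by 0.51 at 2 weeks (limma adjusted p = 0.0341) and by 0.43 on average (adjusted p = 0.00784). The other 30 measured partners of glutamate receptors, the 20 of inhibitory receptors and the 24 transmitter genes were not called at either age. Nor were the 13 genes listed for the ON bipolar cascade. At 2 weeks the list medians were 0.07, 0.09, 0.06 and 0.08 in that order, and at 4 months 0.02, -0.01, 0.04 and 0.00.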

How the data were processed

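Total RNA of mouse retinas was measured on 16 Affymetrix Mouse Exon 1.0 arrays with 1 label, 4 in each group. The authors deposited a log2 signal for each transcript cluster of an array, made with Partek and RMA on build mm8, per the submitters' processing notes, which give no version. The log base is inferred from the range, 3.76 to 15.7. Values were used as deposited. Of 115830 rows, 25539 carry a single symbol and give 20259 genes. With 4 arrays a group, precision is set by their number. Each limma p sets a difference between groups against the spread between replicates, pooled over the groups and drawn toward that of all genes. The exact permutation p-values set a difference against those of reassigned arrays.

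All genes were fitted with limma 3.58.1 (R 4.3.3) in 1 model of 4 group means (12 residual degrees of freedom). Neither covariates nor a signal filter were used, and the Benjamini-Hochberg adjustment ran over all genes. Subunit pairs were compared within arrays by exact permutation. The fit was tested on simulated data.

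Array values were given for called genes whose groups do not overlap (at most 8 rises and 8 falls in each age contrast), for the 3 smallest p-values of each genotype contrast and for the subunit pairs. Gria2 was added after its values were seen. The receptor genes, partner lists, markers and promoter motifs were chosen with earlier results of these data known. RefSeq tables gave gene order, symbols and promoters. A further planned subunit pair is not reported here. Alternatives were other scalings, filters, row choices, covariates, array weights, a replicate block and leaving out arrays.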

Additional observations from a re-analysis of the deposited data

Results flagged for a closer look

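In 5 of the 68 groups of 4 arrays, over 17 receptor genes, 1 array stood far from the other 3, where chance gives about 1 group in 20. Gabra4 read 8.01 in replicate 4 of the null group at 2 weeks, against 7.59 to 7.63 in the other 3. Gabrb2 read 10.65 in replicate 2 of the null group at 4 months, against 10.44 to 10.47. Gria3 read 8.78 in replicate 2 of WT at 4 months, against 8.68 to 8.69. Grin2a read 6.03 in replicate 1 of WT at 2 weeks, against 6.54 to 6.57. Grm3 read 4.95 in replicate 3 of WT at 4 months, against 5.12 to 5.14.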

How the results depend on the processing

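All receptor genes called with age in any setting were lower at 4 months. Called receptor genes with age in null numbered 5 over all arrays, 10 after quantile normalization or with array weights, 2 when p-values were adjusted over all rows of the table, 12 when both 2-week arrays that stand apart were left out, and 2 to 7 when each array was left out in turn. In that last step null replicate 4 of 2 weeks and null replicates 1 and 3 of 4 months each left 2, and null replicate 1 of 2 weeks and 4 of 4 months each left 3. In WT the count was 9 over all arrays, 14 without both arrays that stand apart, 6 with only the arrays compared, and 8 to 13 when each array was left out. Null minus WT at 2 weeks gave 0, and 1 (Gria2, lower in null) with array weights, without both arrays, and in 1 of the 16 fits that left out an array (0 to 1). The 2 settings that leave out both arrays, or the 3 WT arrays with Xist signal, were added after seeing the data. Both 2-week arrays read low over the receptor genes, so leaving them out favours falls with age.

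Of 27 gene results in 29 settings, 730 values kept their direction and side of the threshold, 48 kept only the direction, 3 (all Gria2) passed newly, and none turned. The calls in WT of Gabra4, Glra2, Gabrb2 and Gabrr1 and the null call of Glra2 were lost in none. Gabrb2 in null was lost in 11 settings, Gabrr1 in null in 6, Gabrb1 in WT in 1 and Gabra3 in WT in 2, the 3 WT arrays with Xist signal being among the settings for Gabrb1, Gabra3 and Grm3. Glra1 minus Glra2 with age was 0.80 to 0.91 when each array was left out, and its null minus WT value was -0.11 to 0.00, the last without null replicate 4 of 2 weeks. Grin2a minus Grin2b with age was -0.39 to -0.23, and its null minus WT value -0.24 to -0.07. The cause of these changes was not tested.

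Replicate numbers gave no sign of pairing the arrays: the residuals of 8 same-numbered pairs correlated at -0.281 to 0.23, with 2 pairs over 0.1. Pairs with different numbers gave -0.305 to 0.404. Such correlations cannot show whether same-numbered animals were related or processed together. With the replicate block 8 receptor genes were called with age in WT, 4 in null and 0 in each genotype contrast.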
